A study of Homo sapiens with 4 samples.

Results

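The annexins are a family of proteins that bind membranes carrying negatively charged phospholipids when calcium rises. They were examined here in DU145 cells, an established human prostate cancer line of metastatic origin that needs no androgen, after knockdown of DCUN1D1, which helps to attach the ubiquitin-like protein NEDD8 to cullins. The genes described are ANXA1, ANXA2, ANXA3, ANXA4, ANXA5, ANXA6, ANXA7, ANXA10 and ANXA11, 9 of the 19774 genes measured. Their members on the array are all probe sets annotated to exactly 1 of these genes, 18 of 40914 probe sets, where a probe set is several short probes read together for a transcript. RNA was hybridised to 4 single-channel Affymetrix arrays, 2 of DU145 cells carrying a lentiviral shRNA against DCUN1D1 (shDCUN1D1) and 2 of DU145 cells carrying a lentiviral shRNA against GFP (shGFP, the control). The records call the arrays of a group biological duplicates and describe stably transduced cells grown for 16 h before RNA extraction, while the methods describe RNA collected days after infection with different shRNAs against DCUN1D1. Which of these shRNAs each knockdown array carried is not stated, nor whether a group's duplicates came from separate infections, so p-values measure the spread between these arrays only.

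Each annexin has a conserved core of repeats that holds the calcium sites and lies flat on the membrane, and a variable N-terminal tail that binds other proteins, often of the S100 family. In epithelial cells annexins take part in vesicle traffic, in linking actin to the membrane and in sealing torn plasma membrane, and some of them also reach the cell surface. ANXA2 with its partner S100A10 gathers plasminogen and its activator at the surface, and ANXA1 acts on formyl peptide receptors of leukocytes and is raised by glucocorticoids.

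Promoters are shown for ANXA2 and ANXA10, the member with the widest gap between the knockdown arrays and the one under background in all arrays, as 250 bases before to 50 after the RefSeq gene start (GRCh38.p14), 5′ to 3′ on the strand of the gene. ANXA2 lies on the minus strand (chr15:60397937-60398236) and ANXA10 on the plus strand (chr4:168092287-168092586), and capitals mark TATAAA and GGGCGG found on either strand, with adjoining and overlapping matches merged.
ANXA2 promoter: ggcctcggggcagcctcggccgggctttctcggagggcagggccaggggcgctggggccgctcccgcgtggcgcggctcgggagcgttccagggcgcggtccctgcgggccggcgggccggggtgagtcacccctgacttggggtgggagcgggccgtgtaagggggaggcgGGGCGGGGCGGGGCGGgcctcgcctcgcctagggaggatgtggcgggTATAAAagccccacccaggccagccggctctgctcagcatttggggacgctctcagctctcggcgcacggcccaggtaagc
ANXA10 promoter: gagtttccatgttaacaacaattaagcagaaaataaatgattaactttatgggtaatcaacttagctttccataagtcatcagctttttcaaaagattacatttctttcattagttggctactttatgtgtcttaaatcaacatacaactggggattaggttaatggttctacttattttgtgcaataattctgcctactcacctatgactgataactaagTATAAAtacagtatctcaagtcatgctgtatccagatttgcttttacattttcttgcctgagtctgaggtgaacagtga
The ANXA2 window holds 32 CG dinucleotides and the ANXA10 window 0. All 9 annexins have a window in the RefSeq table. TATAAA is in the windows of ANXA1, ANXA2, ANXA10 and ANXA11, and in 11.95% of 27305 promoters, while GGGCGG is in those of ANXA2, ANXA4, ANXA5, ANXA6 and ANXA7, and in 44.6% of promoters. These matches describe the letters only. ANXA1, like ANXA10, has 0 CG dinucleotides in its window, and the median over all promoters is 14.

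The values are log2 signals, so a difference of 1 is a doubling, and 1 of the 4 arrays stood apart. In shDCUN1D1 replicate 1, 854 genes exceeded their value in every other array by more than 2 log2, against 0 such genes in shDCUN1D1 replicate 2, 0 in shGFP replicate 1 and 5 in shGFP replicate 2. In the other direction, 34 genes lay more than 2 log2 under every other array in shGFP replicate 2 and 0 did so in each of the remaining arrays. The 3′ control probe set for GAPDH, an enzyme of glycolysis, read 10.82 in shDCUN1D1 replicate 1 and 5.09 in shDCUN1D1 replicate 2, against 5.02 and 4.68 in the shGFP arrays. The 3′ set of ACTB, cytoskeletal actin, did the same, with 8.30 and 4.35 in the shDCUN1D1 arrays and 4.05 and 3.95 in the shGFP arrays. The GAPDH set for the middle of the transcript differed less, with 11.07 and 10.01 in the shDCUN1D1 arrays and 9.39 and 9.05 in the shGFP arrays, and its 5′ set read 9.67 and 7.14 in the shDCUN1D1 arrays and 6.60 and 6.42 in the shGFP arrays. The bacterial bioB control, spiked in for hybridisation, read 6.37 and 6.22 in the shDCUN1D1 arrays and 8.22 and 10.49 in the shGFP arrays. A nonspecific control probe set with 20 G or C bases, made to match nothing in the sample, read 2.48 and 2.51 in the shDCUN1D1 arrays, against 2.97 and 3.30 in the shGFP arrays, and serves below as the mark of background. Of 5 epithelial markers, KRT8 lay above this mark in all 4 arrays and KRT18 in shDCUN1D1 replicate 1 only (7.62, against 1.63 to 1.69 in the others), while KRT19, EPCAM and CDH1 did not exceed it in any array. The summed log2 signal of the 5 epithelial markers was 16.4 and 10.8 in the shDCUN1D1 arrays and 10.9 and 12.5 in the shGFP arrays. No measured marker of endothelial cells (4) or leukocytes (4) exceeded the mark in any array. The 6 fibroblast markers summed to 12.6 and 14 in the shDCUN1D1 arrays and 13.5 and 15.1 in the shGFP arrays, and 1 of them, PDGFRB, was lower by the interval rule described below (2.67 and 2.24 in shDCUN1D1, 3.46 and 3.47 in shGFP). The counts of fibroblast markers above the mark were 2 and 1 in the shDCUN1D1 arrays and 2 and 2 in the shGFP arrays. COL1A1 exceeded it in all 4. The 4 measured luminal prostate markers summed to 9.4 and 10.3 in the shDCUN1D1 arrays and 10.5 and 9.2 in the shGFP arrays. Their counts above the mark were 1 and 2 in the shDCUN1D1 arrays and 1 and 0 in the shGFP arrays. The targeted gene DCUN1D1 read 1.60 and 1.45 in the shDCUN1D1 arrays and 2.55 and 1.99 in the shGFP arrays on its brightest probe set (log2 fold change −0.75, standard error 0.26, limma adjusted p = 0.59), below the mark in all 4. Over its 6 probe sets the mean log2 fold change was −0.22, and 2 of the sets were positive (0.12 and 0.07). The paper reports strongly reduced DCUN1D1 mRNA by real-time PCR and protein by Western blot in DU145 knockdown cells. Whether the cultures of these arrays were among them is not stated.

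Annexins were taken to be well expressed in DU145 cells, and these arrays showed that in shDCUN1D1 replicate 1 alone. With each gene represented by its brightest probe set, 8 of 9 annexins lay above the nonspecific control in shDCUN1D1 replicate 1 and 1 of 9, ANXA2, in shDCUN1D1 replicate 2, against 0 of 9 in each shGFP array. Over all genes the shares were 27.8% and 23.3% in the shDCUN1D1 arrays and 15.2% and 10.4% in the shGFP arrays. The median log2 signal of the 9 genes was 4.54 and 1.67 in the shDCUN1D1 arrays, against 1.5 and 1.68 in the shGFP arrays. Against a lower mark, the nonspecific control with 15 G or C bases, 8 and 5 of the 9 genes lay above it in the shDCUN1D1 arrays and 4 and 4 in the shGFP arrays. The shares of all genes above that mark were 71.0% and 69.1% in the shDCUN1D1 arrays and 56.6% and 40.9% in the shGFP arrays. With 10 G or C bases, the annexin counts were 9 and 8 in the shDCUN1D1 arrays and 9 and 7 in the shGFP arrays. The matching shares of all genes were 98.3% and 98.0%, then 95.8% and 90.2%. By the mark of 20 G or C bases, most annexin signals in 3 of the 4 arrays were no higher than those of probes that match nothing. A signal at that level sets no order among genes and does not show that a transcript is absent.

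**Figure D1:**
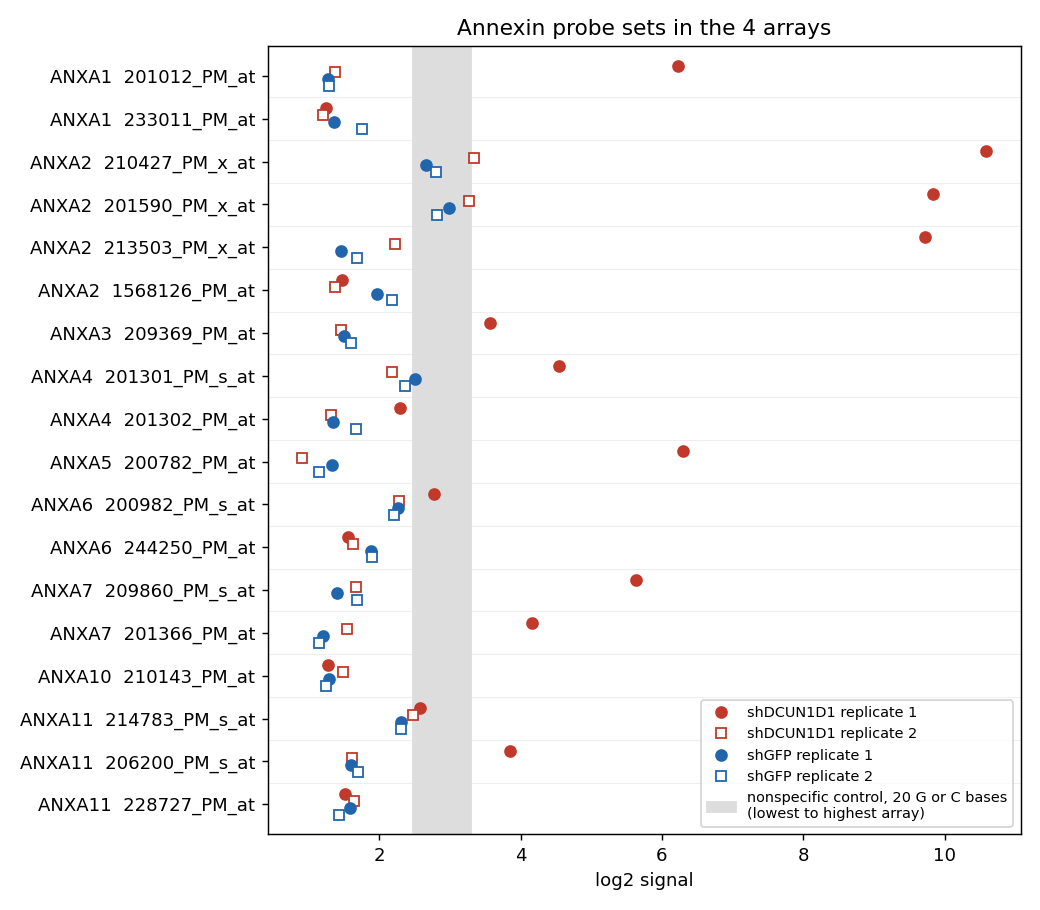
Log2 signal of the 18 annexin probe sets in each of the 4 arrays, shDCUN1D1 in red and shGFP in blue, with filled circles for replicate 1 and open squares for replicate 2. The grey band spans the nonspecific control holding 20 G or C bases over the arrays, 2.48 to 3.30. ANXA2 reads 10.59 in shDCUN1D1 replicate 1 on its brightest probe set, and the filled red circle stands alone to the right in 9 of the 18 rows by more than 2 log2.

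ANXA2 gave the widest spread of signal. Its brightest probe set read 10.59 and 3.34 in the shDCUN1D1 arrays, against 2.66 and 2.81 in the shGFP arrays, means of 6.96 ± 5.13 and 2.73 ± 0.11 (SD, n = 2 each). Both knockdown arrays lay above both controls, but 1 of them lay 7.25 above the other, a gap wider than the fold change itself. The log2 fold change was 4.23 (standard error 2.38, 90% interval −0.60 to 9.06, limma adjusted p = 0.59). As neither shGFP array exceeded the nonspecific control, the fold is a lower bound: the shDCUN1D1 mean was at least 14.2-fold higher than the shGFP mean with each control array raised to its nonspecific control, and at least 1.15-fold higher without shDCUN1D1 replicate 1. Such a bound allows for background in the control arrays only and leaves out the spread between arrays.

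The other ANXA2 probe sets did not all go the same way. A second set, 201590_PM_x_at, read 9.83 and 3.27 in the shDCUN1D1 arrays and 2.98 and 2.81 in the shGFP arrays, and the set 213503_PM_x_at read 9.72 and 2.23 in the shDCUN1D1 arrays and 1.46 and 1.69 in the shGFP arrays. All 3 of these sets carry the suffix that Affymetrix gives to probes shared with other transcripts, and ANXA2 has near-identical pseudogenes, so their signal cannot be split between ANXA2 and such copies. The probe set of the pseudogene ANXA2P2, of the same type, read 5.61 and 3.42 in the shDCUN1D1 arrays and 2.90 and 2.04 in the shGFP arrays. It was at least 2.6-fold higher in shDCUN1D1, by the same lower bound as for ANXA2, and at least 1.22-fold without shDCUN1D1 replicate 1. It passed the interval rule described below as higher but not the adjusted p (log2 fold change 2.04, standard error 0.84, limma adjusted p = 0.59). That fold change was 0.95 without shDCUN1D1 replicate 1 and 1.61 without shGFP replicate 2. The probe sets of ANXA2P1 and ANXA2P3 differed little between arrays, with 3.29 and 3.26 against 3.27 and 3.60 for ANXA2P1 and 4.40 and 3.97 against 4.03 and 3.72 for ANXA2P3, shDCUN1D1 first. The dimmest ANXA2 set, 1568126_PM_at, went the other way, with 1.48 and 1.37 in the shDCUN1D1 arrays and 1.97 and 2.17 in the shGFP arrays. It lay under the nonspecific control throughout, and the nonspecific controls holding 15 and 16 G or C bases, near it in level, themselves differed by −0.34 and −0.38, shDCUN1D1 minus shGFP.

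ANXA1 and ANXA5 showed signal in shDCUN1D1 replicate 1 and background in the other arrays. ANXA1, known as an inhibitor of phospholipase A2 and as a ligand of formyl peptide receptors, read 6.23 and 1.38 in the shDCUN1D1 arrays, against 1.27 and 1.29 in the shGFP arrays. Its log2 fold change was 2.52 (standard error 1.58, limma adjusted p = 0.59), and 0.09 without shDCUN1D1 replicate 1. Computed as for ANXA2, the signal was at least 1.59-fold higher in shDCUN1D1. The other ANXA1 probe set, 233011_PM_at, read 1.25 and 1.2 in the shDCUN1D1 arrays and 1.37 and 1.75 in the shGFP arrays, so the 2 sets differed in direction. ANXA5, which binds exposed phosphatidylserine and is used as a probe of apoptotic cells, has 1 probe set, which read 6.30 and 0.91 in the shDCUN1D1 arrays, against 1.33 and 1.14 in the shGFP arrays. Its groups overlapped, as shDCUN1D1 replicate 2 was the lowest array of all, and its log2 fold change of 2.37 (standard error 1.75, limma adjusted p = 0.61) was −0.33 without shDCUN1D1 replicate 1. The corresponding lower bounds were at least 1.38-fold higher for ANXA5, 1.43-fold for ANXA7 and 1.17-fold for ANXA4, each with 1 of 2 knockdown arrays above the nonspecific control.

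ANXA7 and ANXA11, which have long N-terminal tails and bind penta-EF-hand proteins, behaved differently from each other. ANXA7, or synexin, known for aggregating and fusing secretory granules, read 5.63 and 1.67 in the shDCUN1D1 arrays and 1.41 and 1.68 in the shGFP arrays on its brighter set, a log2 fold change of 2.11 (standard error 1.30, limma adjusted p = 0.59). Its other set, 201366_PM_at, read 4.17 and 1.54 in the shDCUN1D1 arrays and 1.21 and 1.15 in the shGFP arrays. Both ANXA7 sets thus pointed the same way, and only the dimmer one kept the groups apart. ANXA11, which tethers RNA granules to lysosomes, read 2.57 and 2.48 in the shDCUN1D1 arrays and 2.30 and 2.31 in the shGFP arrays, a log2 fold change of 0.22 (standard error 0.24, limma adjusted p = 0.72). The groups did not overlap, at a level close to that of the nonspecific control holding 20 G or C bases, which differed by −0.64. A second ANXA11 set, 206200_PM_s_at, read 3.85 and 1.61 in the shDCUN1D1 arrays and 1.61 and 1.70 in the shGFP arrays, and the set 228727_PM_at read 1.52 and 1.65 in the shDCUN1D1 arrays and 1.59 and 1.44 in the shGFP arrays. For ANXA11 the choice of probe set therefore decided whether shDCUN1D1 replicate 1 stood out.

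ANXA3 and ANXA4 stood out less. ANXA3, an annexin of neutrophils and several epithelia, read 3.57 and 1.46 in the shDCUN1D1 arrays and 1.5 and 1.59 in the shGFP arrays (log2 fold change 0.97, standard error 0.71, limma adjusted p = 0.605). ANXA4, an annexin of secretory epithelia, read 4.54 and 2.17 in the shDCUN1D1 arrays and 2.51 and 2.37 in the shGFP arrays (log2 fold change 0.92, standard error 0.82, limma adjusted p = 0.66). The groups overlapped for both genes, since shDCUN1D1 replicate 2 lay below both controls, and without replicate 1 the log2 fold changes were −0.08 for ANXA3 and −0.26 for ANXA4. The dimmer ANXA4 set, 201302_PM_at, read 2.29 and 1.32 in the shDCUN1D1 arrays and 1.34 and 1.68 in the shGFP arrays.

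ANXA6 and ANXA10 showed no gap of that size. ANXA6, whose core is duplicated and which links membranes to cholesterol handling and actin, read 2.78 and 2.29 in the shDCUN1D1 arrays and 2.26 and 2.21 in the shGFP arrays. Its log2 fold change was 0.29 (standard error 0.29, 90% interval −0.29 to 0.87, limma adjusted p = 0.68). The dimmer ANXA6 set, 244250_PM_at, read 1.55 and 1.62 in the shDCUN1D1 arrays and 1.88 and 1.90 in the shGFP arrays, and the mean of both sets had a log2 fold change of −0.004. ANXA10, best known from gastric epithelium, read 1.28 and 1.49 in the shDCUN1D1 arrays and 1.29 and 1.24 in the shGFP arrays on its single probe set. It was under the nonspecific control in every array, and its log2 fold change was 0.12 (standard error 0.12, 90% interval −0.12 to 0.36, limma adjusted p = 0.69).

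**Figure D2:**
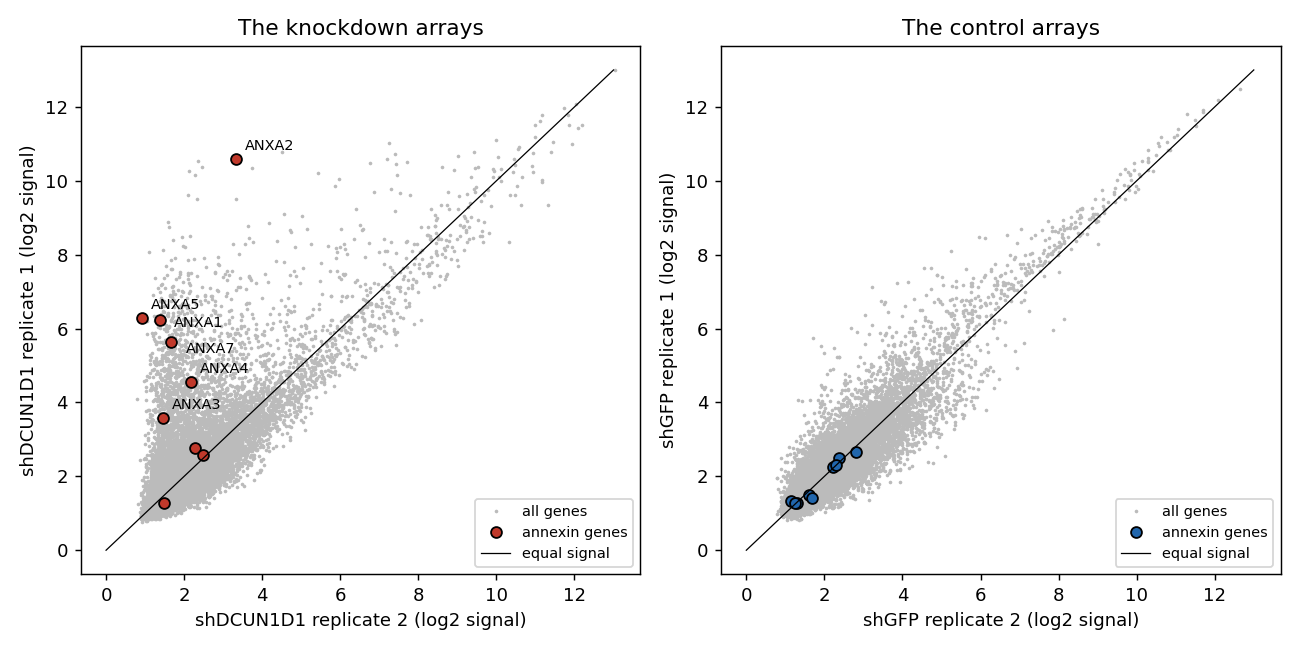
Log2 signal of all 19774 genes (grey) and the 9 annexins (coloured) in 1 replicate against the other, for the shDCUN1D1 arrays (left) and the shGFP arrays (right), with the line of equal signal. In the left panel ANXA2 lies at 10.59 against 3.34, and 6 annexins lie well above the line. In the right panel all annexins lie close to it.

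The comparison of shDCUN1D1 with shGFP thus called no annexin gene. Tests used limma, in which the spread of a gene is drawn towards that of genes of similar signal, with Benjamini–Hochberg adjustment over the 19774 genes. A second call, with the level and threshold of the rule in the study's methods, asks that the lower bound of the two-sided 90% interval of the fold change exceed 1.2 and is termed the fold bound here. The interval was computed from limma's moderated standard error and not with the study's software, so the call does not repeat the study's own. By the adjusted p, 0 of 9 annexins and 0 of 19774 genes (0%) were called, and at an unadjusted p under 0.05 limma gave 0 annexins, with 463 genes higher (2.34%) and 1196 lower (6.05%). By the fold bound, 0 annexins were higher and 0 lower, beside 311 genes higher (1.57%) and 720 lower (3.64%). All 9 annexin fold changes were positive, as were 48.5% of all genes, and their median was 0.97, against −0.01 over all genes. These values use the probe set of highest mean over all 4 arrays, which favours sets bright in shDCUN1D1 replicate 1. With the mean of probe sets, 8 of 9 were positive. Both knockdown arrays lay above both controls for 4 annexins (18.4% of all genes) and below them for 0 (26.3%). The smallest two-sided p that exact permutation of these 4 arrays allows is 0.333. In RNA of whole cultures, fewer expressing cells and less RNA per cell cannot be told apart.

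With every probe set fitted, 0 of the 18 annexin sets were higher (1.18% of 40914 sets) and 1 was lower past the fold bound (2.38%). The lower one was the ANXA2 set 1568126_PM_at, whose log2 fold change was −0.65 (standard error 0.18, limma adjusted p = 0.625). By the adjusted p, 0 annexin sets were called, of 0 called in all (0%). Both knockdown arrays lay above both controls for 7 sets (17.9% of all sets) and below them for 3 (25% of all sets), those 3 being the dimmest sets of ANXA1, ANXA2 and ANXA6. Those 3 genes thus each had sets on both sides.

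The annexin values rested on shDCUN1D1 replicate 1. In that array 5 of 9 annexin genes (ANXA1, ANXA2, ANXA4, ANXA5 and ANXA7) exceeded the highest other array by more than 2 log2, beside 4.32% of all genes, and ANXA3 followed with 1.98. By probe set the count was 9 of 18, beside 3.46% of all sets. Without that array the median log2 fold change of the annexins was 0.09, against 0.01 over all genes, 6 of 9 were positive, and 0 were past the fold bound (3.59% of all genes higher and 3.11% lower). Without shDCUN1D1 replicate 2 the median was 2.11, and 6 annexins were higher past the fold bound (11.4% of all genes), namely ANXA1, ANXA2, ANXA3, ANXA4, ANXA5 and ANXA7, along with 11 annexin probe sets (9.8% of all sets). That comparison has 1 knockdown array, whose spread is assumed to be like that of the controls, so it sets 1 array against the controls. The 3′ controls of GAPDH and ACTB and KRT18, given above, were high in the same array, and their part in these annexin values was not tested.

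**Figure D3:**
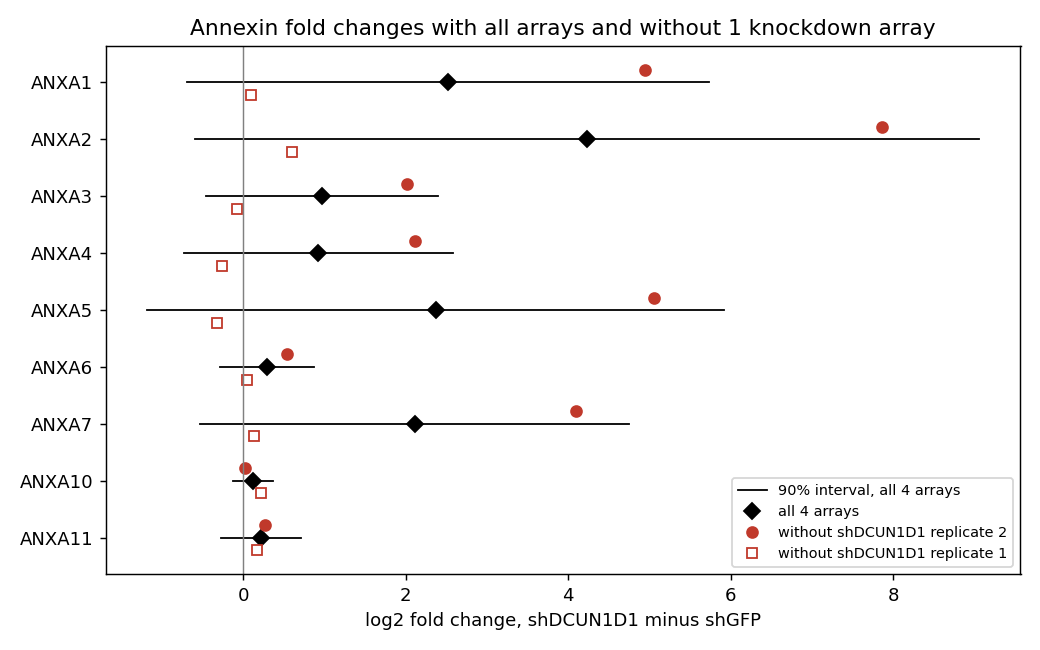
Log2 fold change, shDCUN1D1 minus shGFP, of each annexin gene with all 4 arrays (diamonds, bars for the 90% interval from limma's moderated standard error), without shDCUN1D1 replicate 2 (filled circles) and without shDCUN1D1 replicate 1 (open squares). Every interval spans 0, and the open squares lie between −0.33 (ANXA5) and 0.60 (ANXA2).

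Among the proteins that annexins bind, a few were bright in the same array only and a few in most or all arrays. Many of the listed S100 genes, partners and receptors lay under the nonspecific control in every array. S100A10, the partner of ANXA2, read 7.50 and 2.17 in the shDCUN1D1 arrays and 2.68 and 2.13 in the shGFP arrays. S100A11, the partner of ANXA1, read 5.28 and 1.51 in the shDCUN1D1 arrays and 1.61 and 1.49 in the shGFP arrays. S100A6, which binds ANXA11 among others, was bright in all arrays, with 10.78 and 9.43 in the shDCUN1D1 arrays and 10.03 and 9.50 in the shGFP arrays, a log2 fold change of 0.34 (standard error 0.52, limma adjusted p = 0.805). On its brightest probe set S100A6 thus gave signal where S100A10 and S100A11 on theirs did not. As the mean of all sets the log2 fold change was 1.18 for S100A10, against 2.43 on the brightest. It was 1.18 for S100A11, against 1.84, and 0.11 for S100A6, against 0.34. None of 18 S100 genes (0 higher, 0 lower) passed the fold bound. The median log2 fold change was 0.03, and 2 genes were more than 2 log2 above the other arrays in shDCUN1D1 replicate 1. The fold of S100A10 was at least 3.25 and that of S100A11 at least 1.2, and without that array their log2 fold changes were −0.24 and −0.04. Only S100A7, an S100 protein of squamous epithelia, was higher past the fold bound without that array, with 1.30 and 2.57 in the shDCUN1D1 arrays and 1.83 and 1.29 in the shGFP arrays.

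Of 18 annexin partners and receptors, 0 passed the fold bound, and their median log2 fold change was 0.23. PDCD6, the calcium sensor ALG-2 that binds ANXA7 and ANXA11, read 6.13 and 3.04 in the shDCUN1D1 arrays and 3.17 and 2.63 in the shGFP arrays. SRI, the sorcin that binds ANXA7, read 5.80 and 2.88 in the shDCUN1D1 arrays and 2.74 and 3.23 in the shGFP arrays. Together with AHNAK, a giant scaffold that binds the ANXA2 and S100A10 complex (6.02 and 3.22 in shDCUN1D1, 2.70 and 3.51 in shGFP), they were the 3 of this list more than 2 log2 above the other arrays in shDCUN1D1 replicate 1. This rested on the brightest probe set: as the mean of all sets the log2 fold change was 0.04 for PDCD6, against 1.69 on the brightest, 0.07 for AHNAK, against 1.51, and 0.65 for SRI, against 1.36. EZR, the membrane and actin linker ezrin, read 4.87 and 4.96 in the shDCUN1D1 arrays and 4.47 and 1.91 in the shGFP arrays, above the nonspecific control in 3 of 4. The ANXA1 receptors FPR1 and FPR2 had log2 fold changes of 0.38 and −0.50 and lay under the nonspecific control in all arrays. PLAUR, the urokinase receptor, was higher past the fold bound without shDCUN1D1 replicate 1, with 2.02 and 3.01 in the shDCUN1D1 arrays and 1.52 and 1.59 in the shGFP arrays.

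Among 18 measured genes of membrane repair 0 were higher and 1 was lower, and the median log2 fold change was 0.35. The lower one was SYT7, a synaptotagmin of lysosomal exocytosis, with 2.73 and 2.72 in the shDCUN1D1 arrays, against 3.64 and 4.71 in the shGFP arrays (log2 fold change −1.45, standard error 0.49, limma adjusted p = 0.59, −0.92 without shGFP replicate 2 and −0.50 as the mean of its 5 probe sets). The nonspecific control holding 21 G or C bases, near SYT7 in level, itself differed by −0.65, shDCUN1D1 minus shGFP. The part of this background shift in the SYT7 value was not tested. In shDCUN1D1 replicate 1, CAPN2, CAV1, MYOF and PDCD6 of this list were more than 2 log2 above the other arrays. CAV1, the coat protein of caveolae, read 7.34 and 2.09 in the shDCUN1D1 arrays and 2.29 and 1.83 in the shGFP arrays, and CAPN2, a calpain subunit, 7.60 and 1.67 in the shDCUN1D1 arrays and 1.43 and 1.86 in the shGFP arrays. On these probe sets their profile was that of ANXA1 and ANXA5, with 1 bright array of 4. As the mean of all sets, the log2 fold change was 1.52 for CAPN2, against 2.99 on the brightest. For MYOF it was 0.86, against 1.64, while for CAV1 it was 3, against 2.65.

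Of 12 copines and extended synaptotagmins, which bind membranes through C2 domains instead of annexin repeats, 0 were higher and 1 lower, with a median of −0.01. CPNE7, the lower one, read 3.35 and 3.51 in the shDCUN1D1 arrays and 4.72 and 4.85 in the shGFP arrays, above the nonspecific control throughout (log2 fold change −1.35, standard error 0.42, limma adjusted p = 0.59). Nonspecific controls holding 22 and 23 G or C bases, near CPNE7 in level, themselves differed by −0.68 and −0.63, shDCUN1D1 minus shGFP. CPNE7 lay below both of these controls in the shDCUN1D1 arrays and above both in the shGFP arrays. The part of this background shift in the CPNE7 value was not tested. Unlike ANXA1 and ANXA2, CPNE7 differed little between the arrays of a group, and its log2 fold change was −1.28 without shDCUN1D1 replicate 1. The fold change of SYT7 was −1.46 there, and with 3 arrays neither gene was past the fold bound. ESYT2, a tether of the endoplasmic reticulum to the plasma membrane, was the only gene of this list more than 2 log2 above the other arrays in shDCUN1D1 replicate 1. Its log2 fold change was 2.27 on that brightest probe set and 0.51 as the mean of its 6 sets. Of the other annexins, ANXA9 had a log2 fold change of 0.12 and ANXA13 of −0.08, both under the nonspecific control in all arrays, and ANXA8 and ANXA8L1 share probe sets that name both and were not analysed here.

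**Figure D4:**
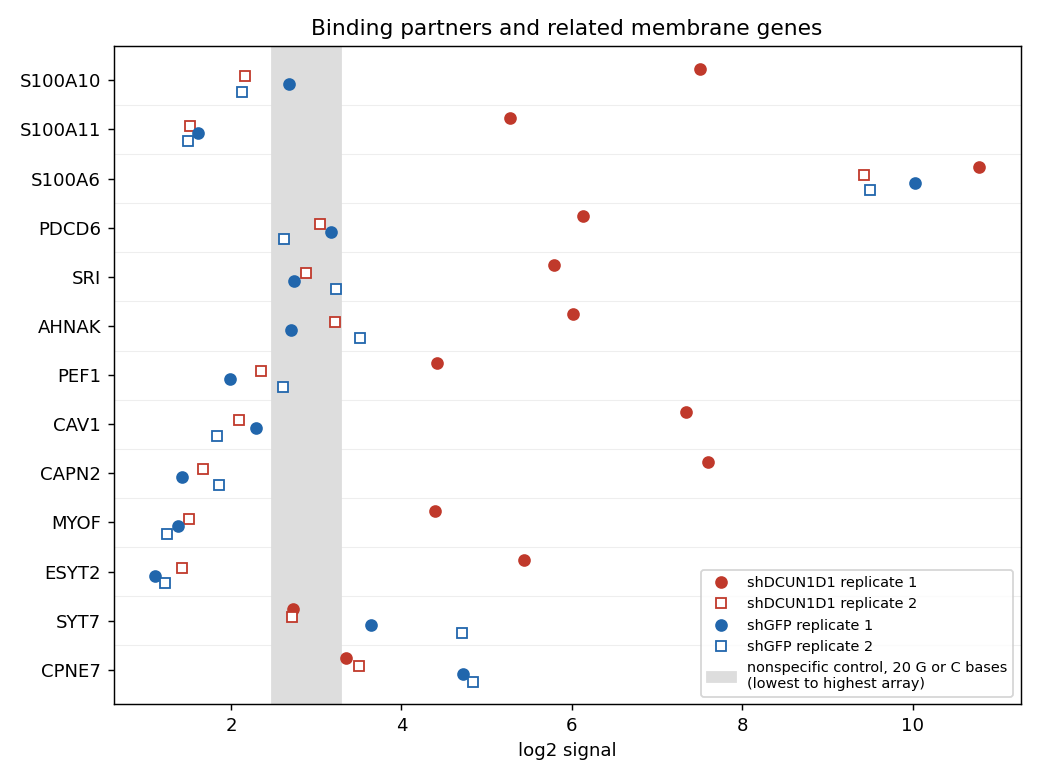
Log2 signal in the 4 arrays of annexin binding partners and related membrane genes, shDCUN1D1 in red and shGFP in blue, filled circles for replicate 1 and open squares for replicate 2, with the nonspecific control holding 20 G or C bases as a grey band. S100A6 is bright in all arrays, S100A10 reads 7.50 in shDCUN1D1 replicate 1 alone, and SYT7 and CPNE7 have both shDCUN1D1 arrays below both shGFP arrays.

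The genes whose pattern lay closest to the mean annexin profile were ISCU, a scaffold for iron and sulphur clusters in mitochondria, ECI2, an enzyme of fatty acid oxidation, and CEP20, a centrosomal protein. Likeness was the Euclidean distance over the 4 arrays after centring each gene, 0.057 for ISCU, 0.096 for ECI2 and 0.099 for CEP20. ISCU read 4.31 and 1.46 in the shDCUN1D1 arrays and 1.36 and 1.33 in the shGFP arrays, again with 1 array above the rest. Over 4 arrays such likeness describes that single array.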

How the data were processed

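Total RNA of 4 DU145 cultures was labelled with biotin and hybridised to Affymetrix arrays. Log2 signals of every probe set were deposited by the authors as a single table. Expression Console is named in the submitters' processing notes without a version, while the paper's methods name dChip with a smoothing spline. Which software made the table is not settled. Base 2 was inferred from the range of values. Precision is limited by the number of arrays.

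Probe sets were named from the platform annotation: 40914 named 1 gene, and 864 naming several and 12835 naming none were left out, as were 102 controls. Genes were matched to RefSeq by ID for 40858 probe sets. For a gene with several probe sets, the one of highest mean signal was used, with no further scaling. The mean was taken over all 4 arrays, so signal in shDCUN1D1 replicate 1 alone could decide which set was used. Fits used limma (version 3.58.1, R 4.3.3) with a variance trend, over all genes and over all probe sets, and were tested on simulated arrays. Annexins, S100 proteins, annexin partners and receptors, membrane repair genes, copines and extended synaptotagmins, other annexins and cell type markers were listed from general knowledge. The members and lists were chosen with earlier results of these data known. Named are all members, DCUN1D1, list genes past the fold bound, 5 binding partners and the 3 genes nearest in pattern. AHNAK, CAPN2, CAV1, MYOF, ESYT2, KRT18, PEF1, FPR1, FPR2, S100A7, PLAUR, EZR and the ANXA2 pseudogenes were named after their values were seen. PDCD6IP was not analysed here. The alternatives tried were other scalings, filters, variance models, thresholds, a mean over probe sets, a replicate block and leaving out each array.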

Additional observations from a re-analysis of the deposited data

How the results depend on the processing

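No annexin gene was past the fold bound in either direction under any scaling, filter, variance model or threshold tried. Of 117 alternative annexin gene fold changes, 4 changed sign. Others kept their sign but shrank: without shDCUN1D1 replicate 1, ANXA1 fell from 2.52 to 0.09 and ANXA7 from 2.11 to 0.13. With all 4 arrays no gene of the whole table passed the adjusted p threshold in any setting, so agreement on that threshold was fixed and shows no robustness. Leaving out each array gave 0 to 6 annexins higher past the fold bound and 0 to 6 by adjusted p, 0 to 11 annexin probe sets higher and 0 to 1 lower, and an annexin median of 0.09 to 2.11, with both ends set by the shDCUN1D1 arrays. In the same settings ANXA3 ran from −0.08 to 2.02, ANXA4 from −0.26 to 2.11 and ANXA5 from −0.33 to 5.06, and DCUN1D1 from −1.02 to −0.47. As the mean of their probe sets, ANXA6 was −0.004 and DCUN1D1 −0.22. Limited to genes above the nonspecific control in both arrays of a group, ANXA2 alone remained, so the annexin median was its 4.23. ANXA2 passed through the shDCUN1D1 arrays only, the group where it is high, so that value is no separate check of its direction. Over all genes, higher and lower counts were 311 and 720, and 522 and 416 after centring on genes above the nonspecific control, which moved the median of all genes to 0.11 with 9 of 9 annexins still positive. They were 172 and 412 with the mean of probe sets, 1105 and 2196 at a bound of 1, and 85 and 256 at a bound of 1.5. The filter to genes above the nonspecific control left 406 lower. Leaving out each array gave 39 to 2253 higher and 343 to 923 lower genes. The cause of these shifts was not tested. The correlation of deviations of same-numbered arrays was −0.041 over genes. With 2 arrays per group and shDCUN1D1 replicate 1 standing apart, this value cannot show whether same-numbered arrays were processed together. With a replicate block the single annexin probe set lower past the bound was lost (0), and 0 annexin genes were called as before. Signal near background limits every annexin value outside shDCUN1D1 replicate 1.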
